A study of Rattus norvegicus with 9 samples.

Results

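Synaptic vesicle and exocytosis genes were described in primary cultures of rat ventral midbrain and in the embryonic ventral midbrain from which such cultures are made. The genes were chosen by symbol: the numbered Syt, Stx, Stxbp, Vamp, Cplx, Snap and Syn genes, with a fixed set of further vesicle, active zone, endocytosis and postsynaptic genes. They came to 65 genes of the 10411 genes that the array measured with a probe set of 1 symbol. Where a gene had several such probe sets, its brightest one was read. The cultures (MesPC, 6 arrays) were dissociated ventral midbrain cells from rat embryos of embryonic day 11, collected after 9 days in vitro. The tissue (MesE11, 3 arrays) was pooled, undissociated ventral midbrain of the same embryonic day. Per the labels, embryos of 4 pregnant rats were mixed into 3 groups that were handled separately, each group gave 1 tissue pool, and cells were cultured in duplicate. The labels give no strain, genotype or treatment that sets the groups apart. They speak of 3 independent MesPC samples while 6 MesPC arrays were analysed, so the p-values speak of the spread among these arrays alone, some of which may be technical repeats. MesPC replicates 1 to 3 also stood apart from MesPC replicates 4 to 6, so results are given for each set too.

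Neurons release transmitter when a vesicle docks at the plasma membrane and its VAMP protein zips together with a syntaxin and SNAP25 into a SNARE complex that pulls the membranes together. Synaptotagmins sense the calcium that triggers the step, complexins clamp and aid it, NSF and its adaptor take the spent complex apart, and clathrin, dynamin and synaptojanin take the membrane back. Every cell also fuses vesicles, using widely expressed relatives of the neuronal proteins such as Stx4, Snap23 and Vamp3, so the family holds both neuronal and general members.

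The genes that were lower in the cultures included the neuronal release genes Sv2a, Cplx1, Stx1a, Snap25 and Syp and the endosomal syntaxin genes Stx7, Stx12 and Stx8. Those that were higher were Vamp3, Vamp5, Sypl1, Stx4, Stx18, Snap23 and Stxbp3, while the neuronal Vamp2, Syn1, Bsn and Unc13a did not pass the test. Of the 65 genes, 26 fell and 7 rose in MesPC relative to MesE11, and 32 did not pass the test (limma adjusted p under 0.05, adjusted over all probe sets). The 26 that fell were 40% of the genes, beside 22.7% of all 10411 genes, and the 7 that rose were 10.8%, beside 21.9% of all genes. With MesPC replicates 1 to 3 alone 34 genes were lower and 8 higher, beside 27.0% and 25.7% of all genes, and with replicates 4 to 6 alone 26 were lower and 8 higher, beside 27.2% and 22.9%. With each culture set and the 3 tissue arrays entered as random blocks (correlation 0.447), 12 were lower and 6 higher, beside 9.11% and 13.2% of all genes. The tissue block took the same correlation, so calls lost in this fit cannot be laid to the culture sets alone. Without MesE11 replicate 1, 2 or 3 the falls numbered 17, 16 and 14, beside 16.2%, 17.2% and 14.7% of all genes. The median difference over the 65 genes was -0.21 on the log2 scale, against -0.06 over all genes. The largest falls were those of the vesicle glycoprotein gene Sv2a (3.15-fold), the complexin gene Cplx1 (2.87-fold), the syntaxin gene Stx1a (2.22-fold) and Snap91 (2.16-fold), and the largest rises those of Vamp3 (2.92-fold) and Vamp5 (2.21-fold). These 4 falls were the ones of 2-fold or more, a size that 2.13% of all genes reached with a call, and the 2 rises stood beside 3.63% of all genes. With replicates 4 to 6 alone, 1 called fall was of that size (Cplx1, -1.09), and Syt3 (-0.77) lay below Stx1a (-0.48) and Snap91 (-0.45). In bulk RNA, fewer cells of a type and less RNA per cell cannot be told apart.

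**Figure D1:**
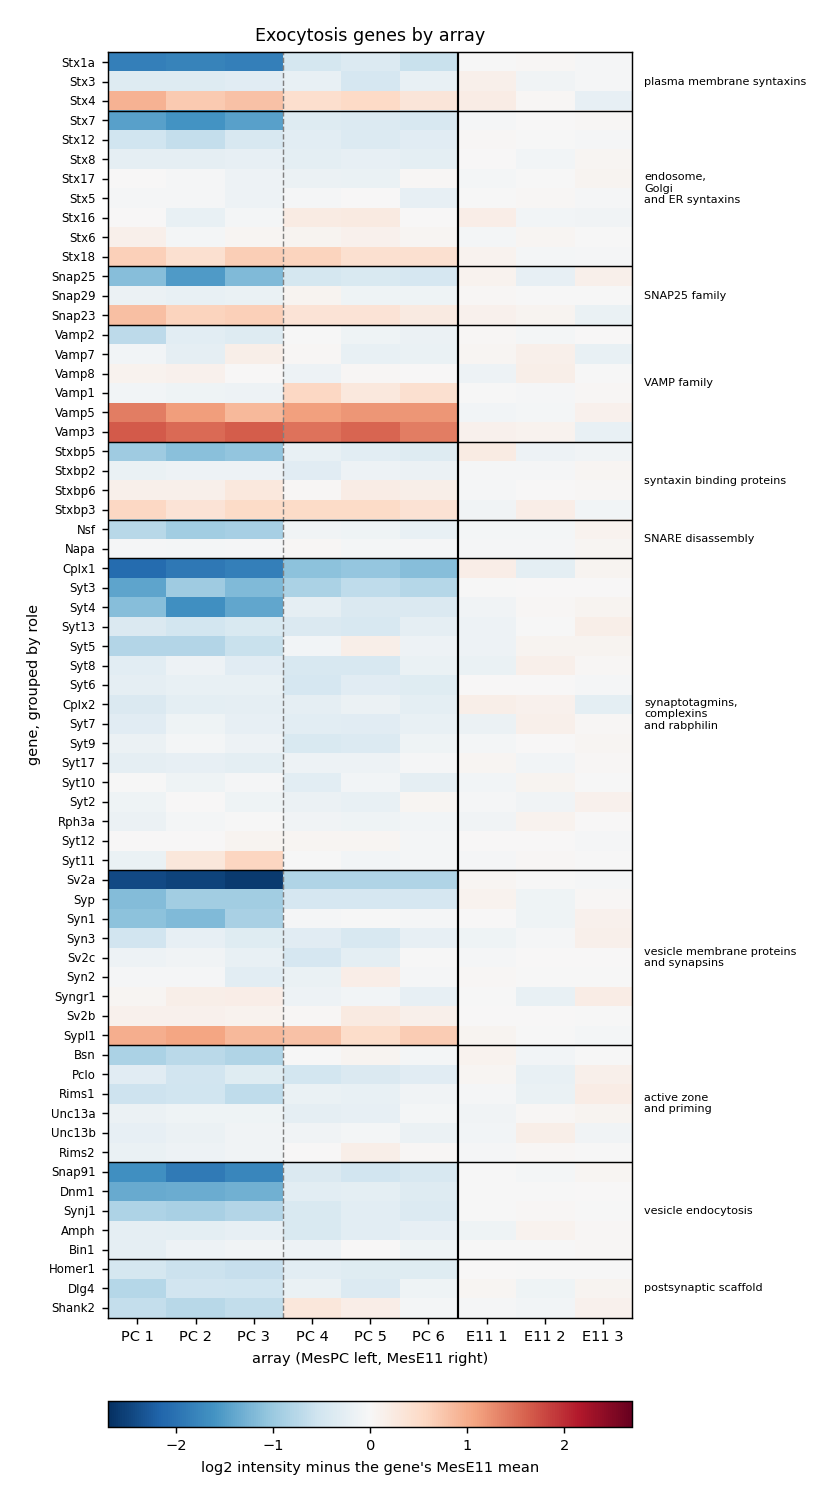
Heat map of the 65 genes (rows, ordered by role) in the 6 MesPC arrays and the 3 MesE11 arrays (columns), coloured by the log2 intensity minus the gene's MesE11 mean. Falls are deepest in MesPC replicates 1 to 3 for Sv2a, Cplx1, Stx1a and Snap91, while Vamp3 and Vamp5 are raised in all 6 MesPC arrays.

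The culture arrays fell into 2 sets that no label parts. Over all tested probe sets the correlation was 0.9975 to 0.9978 among MesPC replicates 1 to 3 and 0.9972 to 0.9977 among replicates 4 to 6, but 0.9821 to 0.9867 between the sets; with tissue it was 0.9429 to 0.9534 for replicates 1 to 3 and 0.9660 to 0.9738 for replicates 4 to 6. Values are therefore given for both sets. Summed over the 65 genes, the linear intensity was 46937 to 49139 in MesPC replicates 1 to 3 and 60576 to 62675 in replicates 4 to 6, against 66163 to 68045 in MesE11. The summed intensity of 11 neuron markers was 22733 to 25648 in MesPC replicates 1 to 3 and 53541 to 55746 in replicates 4 to 6, against 66049 to 69703 in MesE11. Of these 11 markers, 4 fell, 0 rose, and their median difference was -0.83 (-1.38 with replicates 1 to 3 alone and -0.26 with replicates 4 to 6 alone). With replicates 1 to 3 alone 11 of the 11 were lower, and with replicates 4 to 6 alone 7 were lower and 1 higher; none had its means within the range of the array's bacterial control probe sets, 4.80 to 6.68. Fibroblast markers rose in 7 of 7 (summed intensity 25097 to 28378 in all 6 cultures, 2180 to 2561 in tissue), astrocyte markers in 5 of 9 (23315 to 29103 against 15963 to 20530) and dividing-cell markers in 5 of 5 (4602 to 9013 against 2201 to 2577). Erythroid markers fell in 5 of 5 (643 to 859 against 22819 to 27687), endothelial markers in 3 of 4 (348 to 423 against 1361 to 1598) and microglial markers in 4 of 6 (1288 to 1435 against 1741 to 1862). In the oligodendrocyte lineage list 1 of 6 rose, the progenitor and mesenchymal marker Pdgfra, and 1 fell, Mag (summed intensity 2608 to 3570 in the cultures, 2070 to 2433 in tissue). The median difference of that list was -0.22, so its higher sum does not speak for the list as a whole. With replicates 4 to 6 alone 5 of the 6 were lower and 1 higher, beside 27.2% and 22.9% of all genes. The marker counts over all arrays stand beside 21.9% of all genes higher and 22.7% lower. With the random block 6 fibroblast markers were higher, and 3 neuron and 2 microglial markers lower, beside 13.2% and 9.11% of all genes. The other marker counts were unchanged in that fit. With replicates 1 to 3 alone 1 astrocyte marker was lower. The part of these cell types in the differences below was not tested.

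In what follows, levels are log2 intensities and each difference is MesPC minus MesE11 on that scale with limma's moderated standard error and adjusted p. The syntaxins of the plasma membrane split by gene: 1 of 3 rose and 2 fell (1 and 1 with the random block, which ended the call of Stx3). Over all genes 21.9% rose and 22.7% fell, or 13.2% and 9.11% with the random block. Each role holds few genes. Stx1a, the neuronal syntaxin of the release complex, measured 8.01, 8.05 and 8.00 in MesPC replicates 1 to 3 and 9.38, 9.48 and 9.26 in replicates 4 to 6, against 9.83, 9.89 and 9.83 in MesE11. MesPC replicates 1 to 3 lay lowest, replicates 4 to 6 between, and no culture array reached the tissue values. The difference was -1.15 ± 0.38 (adjusted p 0.0327); it was -1.83 with replicates 1 to 3 alone and -0.48 with replicates 4 to 6 alone. Without any 1 of the MesE11 arrays or of MesPC replicates 1 to 3, the Stx1a call was lost (adjusted p 0.0505 to 0.0918). Stx4, the widely expressed syntaxin that serves regulated delivery of membrane proteins, ran the other way, with 10.45, 10.21 and 10.30 in MesPC replicates 1 to 3 and 9.97, 10.05 and 9.83 in replicates 4 to 6, against 9.71, 9.53 and 9.30 in MesE11. Here replicates 1 to 3 were highest and tissue lowest, without overlap, and the difference was 0.62 ± 0.14 (adjusted p 0.0054). Stx3, a relative found at ribbon synapses and apical membranes, was lower by a smaller amount, -0.31 ± 0.07 (adjusted p 0.0084), with 7.91 to 8.16 over the 6 cultures against 8.26 to 8.48 in tissue.

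The promoters of Stx1a and Stx4 are shown as an opposed pair of the same family, that of Sv2a as the largest fall and that of Syp as a vesicle marker, all from RefSeq. Each sequence is the 250 bases before the start listed in that table (GRCr8), on the gene's strand. Capitals mark the GC box GGGGCGGGG, a run that Sp-family zinc finger factors can bind.
Stx1a (chr12:27306472-27306721, minus strand): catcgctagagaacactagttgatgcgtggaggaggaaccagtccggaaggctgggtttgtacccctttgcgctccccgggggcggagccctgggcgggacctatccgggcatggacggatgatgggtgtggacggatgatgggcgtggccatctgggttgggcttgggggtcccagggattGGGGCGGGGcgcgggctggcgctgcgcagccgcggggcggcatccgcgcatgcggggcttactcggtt
Stx4 (chr1:191881817-191882066, plus strand): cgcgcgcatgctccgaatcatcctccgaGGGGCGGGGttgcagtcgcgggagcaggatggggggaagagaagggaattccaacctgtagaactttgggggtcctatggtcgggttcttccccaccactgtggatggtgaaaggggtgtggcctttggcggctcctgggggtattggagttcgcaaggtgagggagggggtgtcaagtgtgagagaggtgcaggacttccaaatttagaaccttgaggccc
Sv2a (chr2:186430113-186430362, plus strand): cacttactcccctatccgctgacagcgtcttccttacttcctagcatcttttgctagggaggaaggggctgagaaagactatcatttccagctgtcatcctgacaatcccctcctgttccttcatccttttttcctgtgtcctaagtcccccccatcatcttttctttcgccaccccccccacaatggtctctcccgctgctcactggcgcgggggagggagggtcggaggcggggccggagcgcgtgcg
Syp (chrX:17536450-17536699, minus strand): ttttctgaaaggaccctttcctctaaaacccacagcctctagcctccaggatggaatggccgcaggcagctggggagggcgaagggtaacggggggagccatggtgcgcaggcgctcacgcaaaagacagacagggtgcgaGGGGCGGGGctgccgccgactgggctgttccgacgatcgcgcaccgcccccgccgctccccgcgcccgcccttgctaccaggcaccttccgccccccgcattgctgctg
GC content was 68.4% for Stx1a, 59.6% for Stx4, 58% for Sv2a and 68% for Syp. Searched on both strands, GGGGCGGGG was found in 9% of the 33469 promoters of the table. Of the 50 genes with a promoter there, it was in 1 of the 5 that rose (Stx4), in 5 of the 21 that fell (Pclo, Stx12, Stx1a, Stxbp5 and Syp) and in 6 of the 24 that did not pass the test. The box thus stood in promoters of genes that moved both ways. The cAMP response element TGACGTCA (1.59% of all promoters) was found in 0 of the 26 promoters of changed genes and in 3 of the others (Napa, Syn1 and Vamp1). CAGCACC, the left part of the site of the neuronal gene repressor REST (5.43% of all promoters), was found in Stx18 among those that rose, in Syt4 among those that fell and in Bsn, Rph3a, Sv2b and Syn1. These are letter matches in a short window and not sites shown to be bound.

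Among the 8 syntaxins of endosomes, Golgi and endoplasmic reticulum, 3 fell and 1 rose, beside 22.7% and 21.9% of all genes, and 4 did not pass the test. With the random block 2 fell, beside 9.11% of all genes. Stx7, a late endosome syntaxin, measured 11.17, 11.01 and 11.17 in MesPC replicates 1 to 3 and 12.29, 12.27 and 12.19 in replicates 4 to 6, against 12.60, 12.65 and 12.66 in MesE11. Replicates 1 to 3 were again farthest from tissue. The difference was -0.95 ± 0.32 (adjusted p 0.0349), or -1.52 with replicates 1 to 3 alone and -0.39 with replicates 4 to 6 alone, and the call was lost without any 1 MesE11 array or MesPC replicate 1 or 3 (adjusted p 0.0586 to 0.102). Stx12, which works in recycling endosomes, measured 10.89 to 11.11 in MesPC replicates 1 to 3 and 11.17 to 11.24 in replicates 4 to 6, against 11.51 to 11.57 in MesE11 (-0.43 ± 0.08, adjusted p 0.00242). Stx8, the late endosome partner of Stx7, was alike in both culture sets at 9.48 to 9.54, against 9.68 to 9.82 in MesE11 (-0.25 ± 0.05, adjusted p 0.00306). Stx18, a syntaxin of the endoplasmic reticulum, rose, with 9.77 to 10.00 in MesPC and 9.28 to 9.43 in MesE11 (0.54 ± 0.07, adjusted p 3.6e-04). The Golgi and trans-Golgi genes Stx5 (-0.07), Stx6 (0.06) and Stx16 (0.04) overlapped between the groups. Stx17, known from autophagosomes, differed by -0.08, with both means inside the range of the bacterial control probe sets.

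In the SNAP25 family 1 of 3 rose and 1 fell, beside 21.9% and 22.7% of all genes. With the random block 0 rose and 1 fell, beside 13.2% and 9.11% of all genes. Snap25, the neuronal member, measured 10.55, 10.16 and 10.50 in MesPC replicates 1 to 3 and 11.23, 11.29 and 11.25 in replicates 4 to 6, against 11.79, 11.47 and 11.82 in MesE11. All 6 cultures lay below all 3 tissue pools, and replicates 1 to 3 lay below replicates 4 to 6. Its difference was -0.87 ± 0.25 (adjusted p 0.0216), -1.29 with replicates 1 to 3 alone and -0.44 with replicates 4 to 6 alone; without MesE11 replicate 1 or 3 the adjusted p was 0.0755 or 0.0853. Snap23, the widely expressed member, measured 9.44, 9.22 and 9.28 in MesPC replicates 1 to 3 and 8.99, 8.99 and 8.88 in replicates 4 to 6, against 8.75, 8.69 and 8.44 in MesE11. This was the mirror order, highest in replicates 1 to 3 and lowest in tissue, with a difference of 0.50 ± 0.13 (adjusted p 0.0104); without MesE11 replicate 3 the adjusted p was 0.0578, and a dimmer Snap23 probe set was not called. Snap29, which acts in several endomembrane fusion steps, differed by -0.11 (adjusted p 0.173) and overlapped between the groups.

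The vesicle SNAREs gave the largest rises of all 65 genes. Of these 6 genes 2 rose and 0 fell, beside 21.9% and 22.7% of all genes. Vamp3, cellubrevin of recycling endosomes in most cells, measured 12.04, 11.91 and 12.02 in MesPC replicates 1 to 3 and 11.84, 11.96 and 11.76 in replicates 4 to 6, against 10.48, 10.48 and 10.17 in MesE11. Both culture sets stood more than a full log2 unit above every tissue pool. The difference was 1.54 ± 0.09 (adjusted p 1.2e-06), 1.62 with replicates 1 to 3 alone and 1.47 with replicates 4 to 6 alone. Vamp5, known from muscle cells, measured 9.09 to 9.61 in MesPC against 8.16 to 8.34 in MesE11, 1.15 ± 0.10 (adjusted p 1.8e-05); its dimmer probe set differed by -0.06 and was not called. Vamp2, the chief VAMP of brain synapses, measured 10.13, 10.54 and 10.49 in MesPC replicates 1 to 3 and 10.82, 10.72 and 10.68 in replicates 4 to 6, against 10.86, 10.78 and 10.85 in MesE11. Replicates 1 to 3 lay below tissue while replicates 4 to 6 overlapped it, and the whole comparison did not pass (-0.27 ± 0.13, adjusted p 0.119); with replicates 1 to 3 alone Vamp2 was lower (-0.45, adjusted p 0.00448). Vamp1, the VAMP of spinal and brainstem synapses, was higher with replicates 4 to 6 alone (0.43, adjusted p 0.00144) and was -0.11 with replicates 1 to 3 alone. Its dimmer probe sets differed by 0.07 and -0.22 over all arrays and were not called. The latter ran the other way in MesPC replicates 4 to 6, with 7.53, 7.54 and 7.85 against 7.87, 7.93 and 8.17 in MesE11. Vamp7 (-0.08) and Vamp8 (0.02), of lysosomal and endosomal fusion, did not pass the test.

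**Figure D2:**
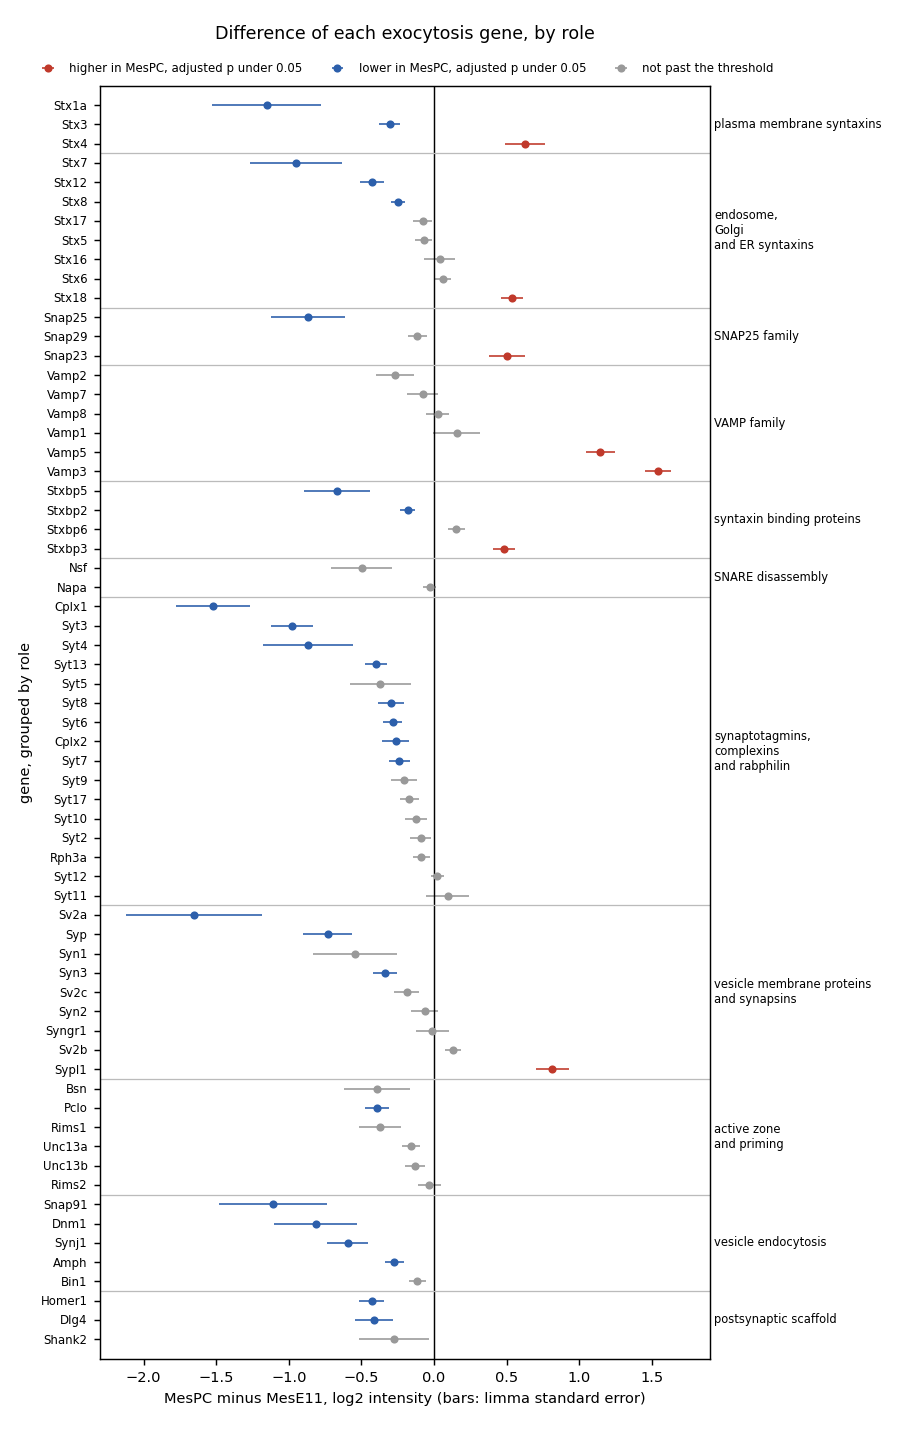
Difference MesPC minus MesE11 for each of the 65 genes on the log2 scale, grouped by role, with the moderated standard error as bars and colour for the call. Vamp3 (1.54) and Vamp5 (1.15) lie farthest right, Sv2a (-1.66) and Cplx1 (-1.52) farthest left.

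Of the syntaxin binding proteins, 1 of 4 rose and 2 fell, beside 21.9% and 22.7% of all genes, and 1 did not pass. With the random block 1 rose and 0 fell, beside 13.2% and 9.11% of all genes. Stxbp3 (Munc18c), the widely expressed partner of Stx4, measured 9.39 to 9.59 in MesPC and 8.93 to 9.19 in MesE11, 0.48 ± 0.07 (adjusted p 7.2e-04), with 0.49 and 0.48 in the 2 culture sets. Stxbp5 (tomosyn), which holds syntaxin and SNAP25 off the VAMP, measured 7.69 to 7.85 in MesPC replicates 1 to 3 and 8.46 to 8.62 in replicates 4 to 6, against 8.69 to 9.04 in MesE11, -0.67 ± 0.23 (adjusted p 0.04). That call was lost without any 1 MesE11 array or any 1 of MesPC replicates 1 to 3 (adjusted p 0.0579 to 0.145). A dimmer Stxbp5 probe set differed by -0.06 and was not called. Stxbp2 (Munc18-2), of immune and epithelial secretion, was slightly lower at 8.21 to 8.36 against 8.47 to 8.56, -0.18 ± 0.05 (adjusted p 0.0222); without MesE11 replicate 3 the adjusted p was 0.0878. Stxbp6 (amisyn) did not pass, with 0.15 (adjusted p 0.0606).

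Neither gene of SNARE disassembly passed the test. The ATPase gene Nsf measured 10.10, 9.90 and 9.94 in MesPC replicates 1 to 3 and 10.76, 10.73 and 10.65 in replicates 4 to 6, against 10.80, 10.79 and 10.95 in MesE11. Replicates 1 to 3 lay far below tissue and replicates 4 to 6 just below it, so that all 6 cultures were lower but the spread was wide (-0.50 ± 0.21, adjusted p 0.0796); with replicates 1 to 3 alone Nsf was lower (-0.87, adjusted p 8.1e-06), and with replicates 4 to 6 alone it was -0.13. Napa, the alpha-SNAP adaptor that every cell uses, was nearly level at 10.78 to 10.86 in MesPC and 10.81 to 10.90 in MesE11 (-0.03 ± 0.05, adjusted p 0.614). Napb, its brain relative, was the 1 gene named by symbol that had no such probe set here.

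Among 16 synaptotagmin, complexin and rabphilin genes, 8 fell and 0 rose, beside 22.7% and 21.9% of all genes. With the random block 3 fell, beside 9.11% of all genes, and the calls of Cplx2, Syt4, Syt6, Syt7 and Syt8 were lost. Cplx1, the complexin of fast release at many mature synapses, measured 8.41, 8.55 and 8.64 in MesPC replicates 1 to 3 and 9.39, 9.45 and 9.34 in replicates 4 to 6, against 10.66, 10.23 and 10.57 in MesE11. It fell in both sets, to less than the lowest tissue value in every culture array, with -1.52 ± 0.25 (adjusted p 0.00113), -1.95 with replicates 1 to 3 alone and -1.09 with replicates 4 to 6 alone. Its dimmer probe set was also called but differed by -0.40, and the mean of both gave -0.96. Cplx2, its relative, sat near the dim end at 6.87 to 7.10 in MesPC and 6.99 to 7.42 in MesE11, with overlap; its small difference of -0.26 ± 0.09 (adjusted p 0.0439) was not called when any 1 of 7 arrays was left out (MesE11 replicate 1 or 2, MesPC replicate 1, 2, 3, 4 or 6, adjusted p 0.0607 to 0.181). Syt3, a calcium sensor of high affinity, measured 7.32, 7.78 and 7.55 in MesPC replicates 1 to 3 and 7.88, 8.04 and 7.97 in replicates 4 to 6, against 8.73, 8.74 and 8.74 in MesE11. Its tissue values were nearly identical and every culture lay below them, with a difference of -0.98 ± 0.14 (adjusted p 5.3e-04). Syt4, a synaptotagmin of dense-core and postsynaptic vesicles, measured 10.34 to 10.84 in MesPC replicates 1 to 3 and 11.62 to 11.76 in replicates 4 to 6, against 11.91 to 12.06 in MesE11, -0.87 ± 0.31 (adjusted p 0.0458). That call was lost without any 1 MesE11 array or any 1 of MesPC replicates 1 to 3 (adjusted p 0.0547 to 0.132).

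The remaining synaptotagmins differed less. Syt13 (-0.40), Syt8 (-0.30), Syt6 (-0.29) and Syt7 (-0.24) passed the test as lower, Syt6 with both means inside the bacterial control range. The groups overlapped for Syt8 (8.66 to 8.97 in MesPC, 8.93 to 9.24 in MesE11) and Syt7 (7.37 to 7.57 and 7.53 to 7.81). Syt7, a sensor of slow and asynchronous release, had 2 further probe sets that were not called. Without MesE11 replicate 2 or 3 the calls of Syt7 (adjusted p 0.0802 and 0.0997) and Syt8 (0.0931 and 0.111) were lost. Syt5 (-0.37), Syt9 (-0.21), Syt17 (-0.17), Syt10 (-0.13), Syt2 (-0.09), Syt11 (0.10) and Syt12 (0.02) did not pass, nor did the Rab3 effector Rph3a (-0.09). Syt5 and Syt17 were lower with replicates 1 to 3 alone (-0.72 and -0.24), and Syt9 with replicates 4 to 6 alone (-0.30). Syt10, Syt12, Syt2 and Rph3a lay within the bacterial control range in both groups. Syt1, the chief calcium sensor of fast release, was not analysed here.

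Of 9 vesicle membrane proteins and synapsins, 3 fell and 1 rose, beside 22.7% and 21.9% of all genes, and 5 did not pass. With the random block 2 fell and 1 rose, beside 9.11% and 13.2% of all genes. Sv2a, a glycoprotein of nearly all synaptic vesicles and the binding site of the drug levetiracetam, measured 7.82, 7.76 and 7.66 in MesPC replicates 1 to 3 and 9.44, 9.45 and 9.44 in replicates 4 to 6, against 10.30, 10.24 and 10.22 in MesE11. The 3 levels did not touch: replicates 1 to 3 were lowest, replicates 4 to 6 intermediate and tissue highest. The difference was -1.66 ± 0.47 (adjusted p 0.0181), -2.50 with replicates 1 to 3 alone and -0.81 with replicates 4 to 6 alone; without any 1 MesE11 array the adjusted p was 0.0534 to 0.0593. Syp, synaptophysin, measured 10.52, 10.75 and 10.76 in MesPC replicates 1 to 3 and 11.24, 11.24 and 11.24 in replicates 4 to 6, against 11.78, 11.58 and 11.71 in MesE11. It kept the same order, with -0.73 ± 0.17 (adjusted p 0.00657). Sypl1, its widely expressed relative, measured 11.41, 11.48 and 11.31 in MesPC replicates 1 to 3 and 11.22, 10.93 and 11.10 in replicates 4 to 6, against 10.50, 10.41 and 10.37 in MesE11. Sypl1 was highest in replicates 1 to 3 and lowest in tissue, with 0.82 ± 0.11 (adjusted p 3.7e-04). Syn3, a synapsin of early neurons, was dim and lower, at 6.59 to 6.86 against 6.98 to 7.23 (-0.34 ± 0.08, adjusted p 0.00819).

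The synapsins that coat mature vesicles did not pass the test. Syn1 measured 9.58, 9.51 and 9.81 in MesPC replicates 1 to 3 and 10.65, 10.67 and 10.66 in replicates 4 to 6, against 10.70, 10.58 and 10.80 in MesE11. Replicates 1 to 3 lay below replicates 4 to 6, which overlapped tissue: -0.54 ± 0.29 (adjusted p 0.152) over all arrays, but -1.06 (adjusted p 7.7e-06) with replicates 1 to 3 alone and -0.03 (adjusted p 0.749) with replicates 4 to 6 alone. Syn2 measured 7.76 to 8.23 in MesPC and 8.03 to 8.07 in MesE11, -0.07 ± 0.09 (adjusted p 0.575); a dimmer Syn2 probe set was called lower (-0.29). Sv2b, at 10.93 to 11.15 in MesPC and 10.89 to 10.91 in MesE11, lay above tissue in all 6 cultures without passing (0.13 ± 0.06, adjusted p 0.0856). Sv2c (-0.19) and Syngr1 (-0.01) did not pass.

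Of the 6 active zone and priming genes, 1 fell and 0 rose, beside 22.7% and 21.9% of all genes, and 5 did not pass. With the random block 0 fell, beside 9.11% of all genes. Pclo, the giant scaffold piccolo, was dim at 6.80 to 6.99 in MesPC and 7.11 to 7.45 in MesE11, -0.39 ± 0.08 (adjusted p 0.00495). Bsn, its relative bassoon, measured 8.77, 8.88 and 8.80 in MesPC replicates 1 to 3 and 9.61, 9.70 and 9.57 in replicates 4 to 6, against 9.70, 9.53 and 9.61 in MesE11. Replicates 4 to 6 overlapped tissue and replicates 1 to 3 did not: -0.39 ± 0.23 (adjusted p 0.182) over all arrays, -0.80 (adjusted p 6.3e-06) with replicates 1 to 3 alone and 0.01 (adjusted p 0.921) with replicates 4 to 6 alone. Rims1, a Rab3 effector that tethers calcium channels, did so too (-0.37 over all, adjusted p 0.0607; -0.59 with replicates 1 to 3 alone, adjusted p 6.3e-04). Unc13a (Munc13-1), the main priming factor, measured 7.66 to 7.84 in MesPC and 7.80 to 7.98 in MesE11 (-0.16 ± 0.06, adjusted p 0.0642). Unc13b (-0.13) and Rims2 (-0.03) did not pass, Rims2 inside the bacterial control range.

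Vesicle endocytosis genes fell in 4 of 5, with a median of -0.59, beside 22.7% of all genes. With the random block 2 fell (Snap91 and Synj1), and with the culture sets averaged 1 fell (Synj1), beside 9.11% and 10.2% of all genes. Snap91 (AP180), the neuronal clathrin assembly protein, measured 10.11, 9.86 and 10.01 in MesPC replicates 1 to 3 and 11.38, 11.25 and 11.34 in replicates 4 to 6, against 11.77, 11.72 and 11.82 in MesE11. Dnm1, the neuronal dynamin that pinches vesicles off, measured 10.46, 10.48 and 10.53 in MesPC replicates 1 to 3 and 11.52, 11.55 and 11.46 in replicates 4 to 6, against 11.80, 11.81 and 11.83 in MesE11. Synj1, synaptojanin, which aids the shedding of the clathrin coat, measured 10.54, 10.52 and 10.58 in MesPC replicates 1 to 3 and 10.97, 11.10 and 11.02 in replicates 4 to 6, against 11.37, 11.41 and 11.38 in MesE11. All 3 genes were lowest in replicates 1 to 3 and highest in tissue. The differences were -1.11 ± 0.37 (adjusted p 0.0356) for Snap91, -0.81 ± 0.28 (adjusted p 0.0426) for Dnm1 and -0.59 ± 0.14 (adjusted p 0.00804) for Synj1. With replicates 4 to 6 alone they were -0.45 (adjusted p 3.8e-04), -0.30 (0.00318) and -0.35 (0.00159). A dimmer Snap91 probe set was also called but differed by -0.23, and the mean of both gave -0.67. The calls of Snap91 (adjusted p 0.0587 to 0.107 without any 1 MesE11 array or MesPC replicate 1 or 3) and Dnm1 (0.0643 to 0.118 without any 1 MesE11 array or any 1 of MesPC replicates 1 to 3) were lost in leave-one-out fits. Amph, amphiphysin, was lower by less (-0.27 ± 0.06, adjusted p 0.00781), and its relative Bin1, which is also expressed widely outside neurons, did not pass (-0.12 ± 0.06, adjusted p 0.131).

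Of the 3 postsynaptic scaffold genes, 2 fell, beside 22.7% of all genes. With the random block 1 fell, beside 9.11% of all genes. Homer1, which links glutamate receptors to calcium stores, measured 9.40 to 9.54 in MesPC replicates 1 to 3 and 9.70 to 9.73 in replicates 4 to 6, against 10.00 to 10.03 in MesE11, -0.43 ± 0.08 (adjusted p 0.00274). Dlg4 (PSD-95) measured 8.76 to 9.01 and 9.16 to 9.40 in the 2 culture sets, against 9.41 to 9.60 in MesE11, -0.42 ± 0.13 (adjusted p 0.0292); without MesE11 replicate 1 or 3 or MesPC replicate 3 the call was lost (adjusted p 0.0521 to 0.107), while of its 2 dimmer probe sets 1 was called lower (-0.46) and 1 was not called. Shank2 was lower in replicates 1 to 3 alone (-0.69, adjusted p 2.4e-05) and 0.14 in replicates 4 to 6 alone.

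Over the 65 genes, the graded order of MesPC replicates 1 to 3 below replicates 4 to 6 below tissue held without overlap for 16 genes (24.6%), beside 8.66% of all genes: Cplx1, Dlg4, Dnm1, Homer1, Nsf, Snap25, Snap91, Stx12, Stx1a, Stx7, Stxbp5, Sv2a, Synj1, Syp, Syt3 and Syt4. The mirror order held for Snap23, Stx4 and Sypl1, 3 genes (4.62%), beside 8.61% of all genes. In 24 genes (36.9%) all 6 cultures lay below all 3 tissue pools, beside 23.3% of all genes, and in 8 (12.3%) all lay above, beside 21.1% of all genes; in 33 the groups overlapped. The sets come from the arrays' own correlations, so the order is a description.

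**Figure D3:**
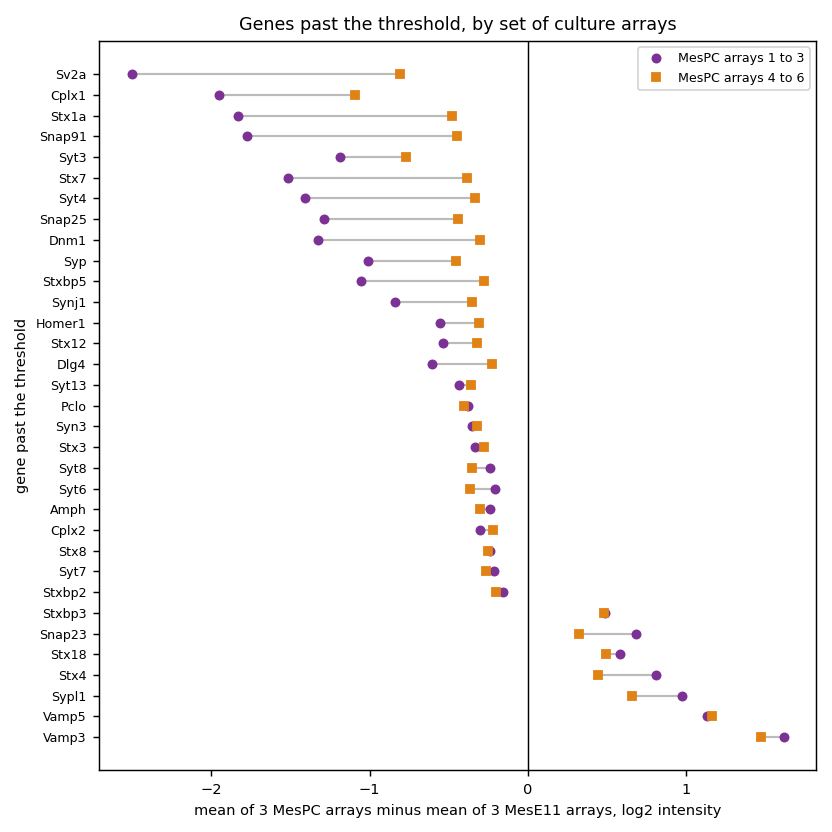
Difference from the MesE11 mean on the log2 scale (horizontal) of the 33 genes past the threshold (rows), as the mean of MesPC replicates 1 to 3 (circles) and of MesPC replicates 4 to 6 (squares), joined by a line. Sv2a lies at -2.50 and -0.81, Stx1a at -1.83 and -0.48, and Vamp3 at 1.62 and 1.47, with both sets on the same side of 0 for every gene drawn.

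With each culture set alone, 24 genes were lower in both fits and 7 higher in both, beside 17.6% and 18.7% of all genes, and 0 were called in opposite directions, beside 0.682%. A further 10 were lower with replicates 1 to 3 alone: Bsn, Cplx2, Nsf, Rims1, Shank2, Snap29, Syn1, Syt17, Syt5 and Vamp2. Of all genes 27.0% were lower in that fit, against the 17.6% that were lower in both. Syt7 and Syt9 were lower with replicates 4 to 6 alone, Stxbp6 was higher with replicates 1 to 3 alone and Vamp1 with replicates 4 to 6 alone. No test compared the sets with each other, and both fits share the MesE11 arrays.

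The 15 calls lost with the random block, at adjusted p 0.053 to 0.276, were those of Snap23 among the rises and of Amph, Cplx2, Dlg4, Dnm1, Pclo, Stx3, Stx8, Stxbp2, Stxbp5, Syn3, Syt4, Syt6, Syt7 and Syt8 among the falls. Over all genes the block took the falls from 22.7% to 9.11% and the rises from 21.9% to 13.2%. Some kept calls lay close to the threshold in that limma fit, as for Snap25 (adjusted p 0.0499), Snap91 (0.0487), Stx7 (0.0480) and Syt13 (0.0479). With each set averaged to 1 value, 9 genes were lower (Cplx1, Homer1, Snap25, Stx12, Sv2a, Synj1, Syp, Syt13 and Syt3) and 7 higher, beside 10.2% and 14.5% of all genes.

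Widely expressed members were set against their neuronal relatives within each array, which removes any shift common to both. In 5 of 6 pairs the general member gained on the neuronal one, and every culture array lay above every tissue array. The gap, MesPC minus MesE11 on the log2 scale, was 1.81 for Vamp3 over Vamp2, 1.78 for Stx4 over Stx1a, 1.55 for Sypl1 over Syp, 1.37 for Snap23 over Snap25 and 0.86 for Dnm2 over Dnm1. All 5 were larger with replicates 1 to 3 (2.06, 2.64, 1.99, 1.97 and 1.41) than with replicates 4 to 6 (1.56, 0.92, 1.11, 0.76 and 0.31). The 2 parts of the last gap were 0.04 for Dnm2, the general dynamin, which did not pass the test, and -0.81 for Dnm1. Unc13b over Unc13a showed 0.02 with overlap. The pairs were chosen with earlier results of these data known, so the gaps are a description without a test.

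**Figure D4:**
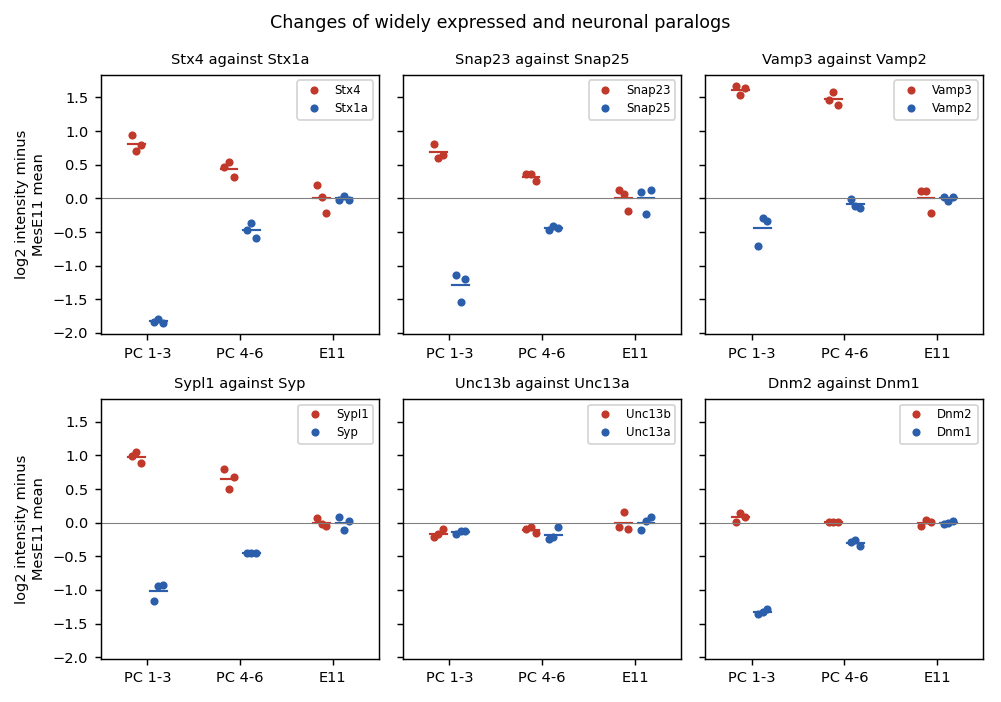
Log2 intensity minus the gene's MesE11 mean (vertical) of the widely expressed gene (red) and its neuronal relative (blue) in 6 pairs, for MesPC replicates 1 to 3, MesPC replicates 4 to 6 and MesE11 (left to right); points are arrays and lines are means. The red and blue points part in the cultures in 5 pairs, most for Stx4 and Stx1a with replicates 1 to 3 (2.64), and stay together for Unc13b and Unc13a.

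Other genes of the presynaptic vesicle cycle were listed apart from the 65. Of 81 such genes 67 were measured: 24 were lower and 7 higher, beside 22.7% and 21.9% of all genes, and their median was -0.20. The falls numbered 15 with the random block and 14 with the culture sets averaged, beside 9.11% and 10.2% of all genes. Slc17a6, the vesicular glutamate transporter of midbrain and brainstem neurons, measured 8.94, 8.72 and 9.04 in MesPC replicates 1 to 3 and 9.88, 9.83 and 9.93 in replicates 4 to 6, against 11.65, 11.36 and 11.45 in MesE11. It fell in both culture sets, with -2.09 ± 0.28 (adjusted p 3.1e-04). Syngr3, a vesicle membrane relative of Syngr1, fell (-1.61 ± 0.49, adjusted p 0.0256), as did Apba1 (Mint1), an adaptor of the presynaptic terminal (-1.29 ± 0.42, adjusted p 0.0339). The calls were lost for Syngr3 without any 1 MesE11 array (adjusted p 0.0689 to 0.0802) and for Apba1 without any 1 MesE11 array or MesPC replicate 1 or 3 (0.0574 to 0.1). The call of Apba1 was also lost with the random block (adjusted p 0.0509) and with the sets averaged (0.0585). The rises were led by Pacsin2, a widely expressed membrane-bending protein (1.04 ± 0.11, adjusted p 5.2e-05), Bet1, a Golgi SNARE (0.89 ± 0.11, adjusted p 1.6e-04), and Scamp2, a carrier membrane protein (0.74 ± 0.08, adjusted p 7.0e-05).

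Of the 65 genes 24 had more than 1 probe set, 33 further ones in all. Both were called the same way for 11, neither for 15, the brightest alone for 6 (1 each of Dlg4, Snap23, Stxbp5 and Vamp5 and 2 of Syt7) and the dimmer alone for 1 (Syn2), and 0 were called in opposite directions.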

How the data were processed

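Total RNA was labelled with biotin and hybridised to 9 Affymetrix rat arrays, 6 of MesPC and 3 of MesE11, per the labels' protocols. The authors deposited log2 intensities made with RMA, per the submitters' processing notes; no version is stated in the labels. RMA brings the arrays to nearly 1 scale, so a gene's difference is one relative to the rest of its array. The lower quartile was 6.98 to 7.11 in culture arrays and 7.15 to 7.21 in tissue arrays, so dim genes as a body sat a little lower in the cultures. The scanner files were not used.

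Of 15923 probe sets, 57 control probe sets were left out and 15866 were tested by lmFit and eBayes of limma 3.58.1 (R 4.3.3), with Benjamini-Hochberg adjustment over all of them and a threshold of 0.05. Each gene was read from its brightest probe set with a single symbol. Symbols came from the array's probe annotation, and all 65 genes matched the RefSeq table of GRCr8 by gene number. Pair gaps were taken within each array and are given without a test. The script was tested on simulated data. The bacterial control range is that of the array's bacterial control probe sets. Precision is limited by how few arrays there are. The genes, lists, pairs and tests were chosen with earlier results of these data known.

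Levels are named for up to 3 called rises and 3 called falls of each role whose culture and tissue values did not overlap, and always for Snap25, Snap23, Vamp2, Vamp3, Stx1a, Stx4, Syp, Sypl1, Syn1, Syn2, Cplx1, Cplx2, Sv2a, Nsf, Napa, Bsn, Pclo, Unc13a, Dnm1, Dlg4 and Homer1. Alternatives were another normalization, median centring, a filter on dim probe sets, averaging of a gene's probe sets, and trended and robust variances. Others were culture sets and tissue as random blocks, culture sets averaged or alone, a replicate block and leaving out each array. Same-numbered arrays did not deviate together by deviations from the group mean (r 0.02, 0.01 and -0.09), which also hold the shift between culture sets. By deviations from the set mean r was 0.08, -0.12 and -0.11. The numbers were not taken as pairs.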

Additional observations from a re-analysis of the deposited data

Results flagged for a closer look

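In 3 of the 65 genes, MesPC replicate 4 stood apart from the other 5 cultures by Dixon's criterion. Napa measured 10.86 there, and the nearest other culture 10.81. Snap29 measured 10.34, and the nearest 10.15. Stxbp2 measured 8.21, and the nearest 8.32. Chance alone marks about 1 in 20 groups, and 65 groups were looked at. Without MesPC replicate 4 the Stxbp2 call held.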

How the results depend on the processing

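The 65 genes gave 26 lower and 7 higher in MesPC. The count of falls moved by over 1.5 times in 5 settings. It was 12 with random blocks of culture sets and tissue, 9 with the sets averaged, and 17, 16 and 14 without MesE11 replicate 1, 2 or 3. The median of -0.21 moved to -0.26 without the dimmest 40% of probe sets, which left 48 of the 65 genes to test, and to -0.13 with replicates 4 to 6 alone. The 24 falls among the other vesicle cycle genes became 15 with the random block and 14 with the sets averaged. They became 38 with replicates 1 to 3 alone, beside 27.0% of all genes, and 38 with a replicate block. The replicate block pairs arrays of like number. It gives the differences of replicates 1 to 3 alone because replicates 4 to 6 have no like-numbered tissue array. In that block 33 of the 65 genes were lower and 7 higher, with 1 call lost (Stxbp2) and 8 gained. For this block, for the normalization and variance settings below and for leaving out a culture array, the share of all genes was not taken. Those counts describe the listed genes alone. Leaving out 1 array at a time gave 14 to 28 falls and 6 to 9 rises, a median of -0.23 to -0.18, and 16 to 26 falls and 5 to 7 rises among the other vesicle cycle genes. The pair gaps then ran from 1.58 to 1.95 for Stx4 over Stx1a, 1.21 to 1.51 for Snap23 over Snap25, 1.70 to 1.89 for Vamp3 over Vamp2, 1.43 to 1.67 for Sypl1 over Syp, 0.74 to 0.98 for Dnm2 over Dnm1 and -0.06 to 0.10 for Unc13b over Unc13a. Quantile normalization ended the calls of Cplx2 and Syt7 and added 4 falls (Bin1, Nsf, Snap29 and Syt17). Median centring gave 29 falls, adding Rims1, Syt17 and Unc13a. The trended and robust fit ended the calls of Dnm1 and Syt4. The mean of probe sets ended that of Syt7 and added a fall of Vamp2. Unc13a was also lower without MesE11 replicate 1 or MesPC replicate 6, and Rims1 and Syt17 without MesPC replicate 6. Without MesPC replicate 4, Nsf and Snap29 were lower and Stxbp6 and Sv2b higher. Called genes changed direction in 0 cases under these settings. The causes were not tested.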
